A study of Homo sapiens with 17 samples.

Results

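L1PA2 and L1PA3 are subfamilies of LINE-1 (L1), the autonomous retrotransposon of the human genome, and most of their copies are shorter than a whole element. The copies described here are the 12623 entries of a table of 3594049 repeat loci that carry the name L1PA2 or L1PA3 and span at most 5900 bases from start to end, 3719 of L1PA2 and 8904 of L1PA3. The other 1031 L1PA2 and 1457 L1PA3 entries are called full-length below. No measured value entered this choice, which rests on name and length alone. The RNA came from N2102Ep, an established human embryonal carcinoma line, a tumour cell type that resembles early embryonic cells. Sequencing followed RNA immunoprecipitation (RIP), which captures a protein together with its bound RNA, or was of total RNA. The 17 libraries fell into 4 groups, namely 4 of ORF2p RIP, 4 of ORF1p RIP, 3 of mock IP and 6 of total RNA. By the labels, ORF1p RIP cells are embryonal and those of the other 3 groups N2102Ep clone 2/A6. Whether the cells differ could not be worked out. In every comparison with ORF1p RIP, the protein and the source of the cells therefore cannot be told apart. The labels give no treatment or genotype beyond the RIP. The mock IP descriptions carry mIgG, and no source used here says which RIP's antibody that control is meant for. Nothing in the labels says that libraries of a group came from separate cultures. The p-values therefore reflect library-to-library spread alone, and that spread may be technical.

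An L1 transcript encodes ORF1p, an RNA-binding protein that coats it, and ORF2p, an endonuclease with reverse transcriptase activity that inserts a new DNA copy. Both proteins are known to prefer the RNA that encoded them, and reverse transcription begins at the 3′ end of that RNA, so that many insertions stop short and lack the 5′ end, where the promoter lies. Others are inverted in part during insertion. A truncated copy therefore usually has no L1 promoter of its own and no complete reading frames, and its sequence can still reach RNA inside a transcript that starts elsewhere, such as the intron of a gene. L1PA2 and L1PA3 are older relatives of L1HS, the subfamily that still moves in humans, and their copies differ little in sequence from each other and from L1HS.

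Values were the authors' estimated counts of reads per locus, with totals of 7693841 to 19670774 over all repeat loci per library, of which 54557 to 335620 lay in truncated L1PA2 and L1PA3 copies. Levels are in CPM, counts scaled to a common total of repeat reads with TMM factors, and every adjusted p of a fitted change is from edgeR's quasi-likelihood test with Benjamini-Hochberg adjustment over all features of its table. Calls needed an adjusted p below 0.05 together with a 2-fold difference. Among values above 0 in truncated copies, 5.28% to 14.4% per library were whole numbers, against 68.6% to 86.2% over all loci, and fractions of a read are what sharing reads among near-identical copies leaves. No source used here says how such reads were shared. The value of a single copy is therefore uncertain throughout, and so is the division between truncated and full-length copies. Replicate 3 of ORF1p RIP stood apart. In the sums of truncated copies it had about the level of the ORF2p RIP libraries where the other 3 of its group were lower. In full-length L1PA2 it lay above the ORF2p RIP libraries (55957 against at most 36435 CPM). In full-length L1PA3 it lay below them (23612 against at least 26203 CPM). The total RNA libraries carry 2 series of descriptions, b (replicates 1 and 2) and bl (replicates 3 to 6). The sums of truncated L1PA2 and L1PA3 copies were lower in b. HERVH-int, a retroviral repeat known for its activity in pluripotent cells, made up 73938 to 106649 CPM of total RNA, and was higher in series b. The table held no genes with which to check the cell type further.

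Truncated L1PA2 copies had a median length of 528 bases and a median divergence of 1.90% from their consensus, and truncated L1PA3 copies 804.5 bases and 2.90%. Together they covered 13.9 Mb, 3.49 Mb in L1PA2 and 10.4 Mb in L1PA3. Their lengths ran from 26 to 5898 bases, and 1152 L1PA2 and 1965 L1PA3 entries were of 300 bases or less. Not every entry is a separate insertion. Of the 12623, 4728 (37.5%) lay within 50 bases of another L1PA2 or L1PA3 entry, 4122 of them beside one on the opposite strand, the arrangement of a partly inverted insertion, and 606 beside one on the same strand. Chromosome X held the most, 1188 entries. Set against the spans of RefSeq genes (GRCh38.p14), 6455 (51.1%) lay outside every gene. A further 2434 lay inside a gene on its opposite strand, 1754 inside a gene on its own strand, 1941 inside genes whose strand was open or mixed, and 39 reached partly into a gene. The spans come without exons, so exonic and intronic copies were not separated.

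Reads were found at most copies, and few copies held many. At 596 of the 12623 copies the value was 0 in all 17 libraries, and 9208 had at least 10 reads over all libraries. The filter on low values (edgeR's filterByExpr with a minimum count of 10) passed 4495, 1292 of L1PA2 and 3203 of L1PA3. Passing depended on length, with 5.90% of L1PA2 and 5.14% of L1PA3 copies of 300 bases or less, and 100% and 99.5% of those over 5000 bases.

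RNA of truncated copies was more abundant with both L1 proteins than in the mock IP or in total RNA. The reads summed over all truncated L1PA2 copies amounted to 10743, 11305, 10474 and 9695 CPM in the ORF2p RIP libraries, 4313, 4305, 11936 and 4437 CPM in ORF1p RIP, 1698, 1712 and 1484 CPM in mock IP, against a low of 737, a median of 1443 and a high of 2088 CPM in total RNA. Every RIP library lay above every mock IP and total RNA library, and the replicate 3 value of ORF1p RIP lay above all ORF2p RIP values while its other 3 lay below them. For truncated L1PA3 the sums were 13624, 15189, 14726 and 13292 CPM in ORF2p RIP, 6579.7, 6631, 15882 and 6903 CPM in ORF1p RIP, 4051, 4211 and 3789.8 CPM in mock IP, and a low of 1978, a median of 3547 and a high of 4549 CPM in total RNA. The order of the groups was the same, with narrower gaps. In bulk RNA, fewer cells with a transcript and less of it per cell cannot be told apart.

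**Figure D1:**
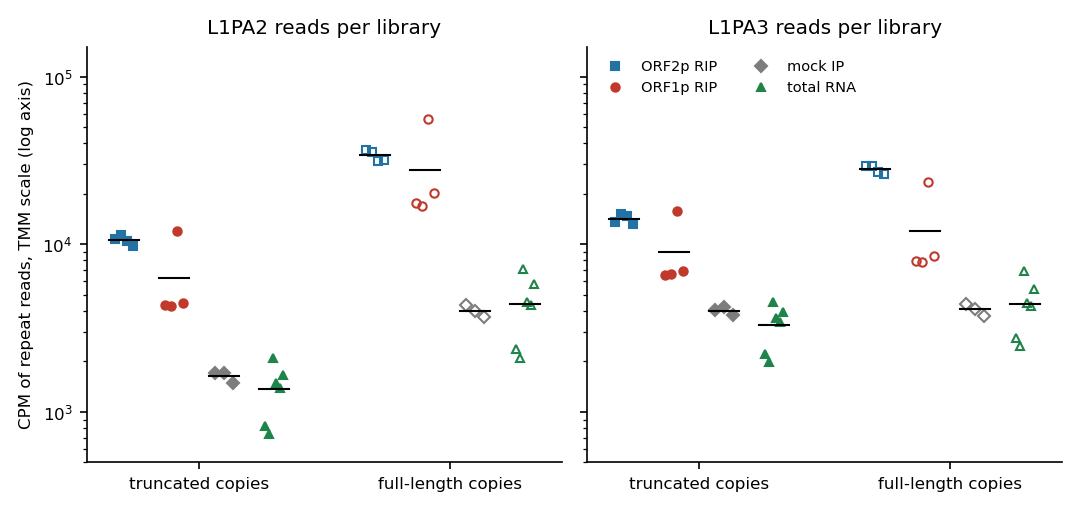
Summed reads of truncated (filled) and full-length (open) L1PA2 and L1PA3 copies in CPM on a log axis, 1 point per library, grouped as ORF2p RIP, ORF1p RIP, mock IP and total RNA. Both RIP groups lie above mock IP for truncated copies, and 1 ORF1p RIP library (replicate 3, 11936 CPM for truncated L1PA2) lies apart from the other 3.

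Truncated L1PA2 rose in ORF2p RIP over mock IP by 2.69 ± 0.40 (SE; adjusted p = 0.000118) on the log2 scale and truncated L1PA3 by 1.82 ± 0.32 (SE; adjusted p = 0.00053). Of the 1076 sums tested, each of them a subfamily or a truncated or full-length division of one, 6.69% were called higher and 1.58% lower in that comparison. The changes in ORF1p RIP over mock IP were 1.94 ± 0.39 (SE; adjusted p = 0.000526) and 1.16 ± 0.32 (SE; adjusted p = 0.00556), where 7.43% of sums were called higher and 9.01% lower. Without ORF1p RIP replicate 3 they were 1.42 (adjusted p = 0.00085) and 0.74 (adjusted p = 0.0179), and the L1PA3 change then fell short of 2-fold. Nearly all of these reads lay in copies with fractional values. The 1453 truncated copies with whole values in all 17 libraries held 0.0659% to 0.648% of the reads. A value of 0 counted as whole, so these include the 596 copies with 0 in every library, and the set leans to copies with few reads. Over these alone the change in ORF2p RIP over mock IP was 0.19 (adjusted p = 0.494) for L1PA2 and 0.0023 (adjusted p = 0.99) for L1PA3. The change in ORF1p RIP over mock IP was 0.66 (adjusted p = 0.0101) and 0.20 (adjusted p = 0.192). Those copies are nearly all short, as 38.1% of the L1PA2 and 42.8% of the L1PA3 entries up to 300 bases were whole-valued, against at most 0.920% in any bin over 600 bases. Among these short entries, 159 of L1PA2 and 362 of L1PA3 held no reads in any library.

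Between the RIPs themselves, the truncated sums were not called apart. ORF2p RIP exceeded ORF1p RIP by 0.76 ± 0.34 (SE; adjusted p = 0.0681) for truncated L1PA2 and by 0.66 ± 0.28 (SE; adjusted p = 0.0594) for truncated L1PA3, where 12.4% of sums were called higher and 6.6% lower. Leaving out ORF1p RIP replicate 3 changed both calls, to 1.28 (adjusted p = 0.00112) and 1.08 (adjusted p = 0.000912).

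Against total RNA, truncated L1PA2 rose by 2.95 ± 0.31 (SE; adjusted p = 2.58e-06) in ORF2p RIP (5.2% of sums higher, 1.3% lower) and by 2.19 ± 0.31 (SE; adjusted p = 1.42e-05) in ORF1p RIP (9.29% of sums higher, 8.36% lower). Truncated L1PA3 rose by 2.11 ± 0.26 (SE; adjusted p = 1.1e-05) in ORF2p RIP and by 1.45 ± 0.26 (SE; adjusted p = 0.000138) in ORF1p RIP. These comparisons share the RIP libraries with those against mock IP. With total RNA of series bl alone, the L1PA2 changes were 2.66 in ORF2p RIP and 1.85 in ORF1p RIP, and those of L1PA3 1.86 and 1.15, each still called. The mock IP differed from total RNA by 0.25 ± 0.33 (SE; adjusted p = 0.582) for truncated L1PA2 and 0.29 ± 0.28 (SE; adjusted p = 0.456) for truncated L1PA3, neither of them called, where 0.743% of sums were called higher.

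Full-length copies, which keep the 5′ end and can hold the reading frames, had larger fitted changes than truncated ones over mock IP, and not in every case over total RNA. In ORF2p RIP over mock IP full-length L1PA2 changed by 3.08 ± 0.48 (SE; adjusted p = 0.000162) and full-length L1PA3 by 2.78 ± 0.42 (SE; adjusted p = 0.000122). In ORF1p RIP over mock IP they changed by 2.79 ± 0.47 (SE; adjusted p = 0.000114) and 1.55 ± 0.39 (SE; adjusted p = 0.00346). Over total RNA full-length L1PA2 and L1PA3 changed by 2.95 and 2.67 in ORF2p RIP, and by 2.66 and 1.45 in ORF1p RIP, and L1PA2 in ORF2p RIP and L1PA3 in ORF1p RIP had the same change as truncated copies to 2 decimals. The share of a subfamily's reads that lie in truncated copies sets the 2 kinds against each other within a library and does not depend on scaling. In L1PA2 it was 22.8, 24.1, 25.02 and 23.3% in the ORF2p RIP libraries, 19.73, 20.2, 17.6 and 17.98% in ORF1p RIP and 28.1, 29.9 and 28.8% in mock IP, with 24.3 ± 1.57% (SD, n = 6) in total RNA. Its lowest values were those of ORF1p RIP and its highest those of mock IP, with no overlap among these 3 groups. In L1PA3 it was 31.7, 34.1, 35.4 and 33.7% in ORF2p RIP, 45.4, 45.8, 40.2 and 44.9% in ORF1p RIP and 47.8, 50.8 and 50.3% in mock IP, with 43.4 ± 2.09% (SD, n = 6) in total RNA. Here ORF2p RIP was lowest, again with no overlap among the RIPs and mock IP. The RIPs ranked oppositely in the 2 subfamilies, ORF2p RIP lying 4.94 percentage points above ORF1p RIP in L1PA2 and 10.4 below it in L1PA3. Both differences gave p = 0.0286 in an exact two-sided permutation test, the smallest that 4 against 4 libraries allow, and adjusted p = 0.0571 over the 12 tests of shares. The leading L1PA2 copy, described further on, held 19.99% to 22.6% of truncated L1PA2 reads in ORF2p RIP and 2.14% to 2.30% in ORF1p RIP. Without it the L1PA2 shares of the RIPs overlapped. Against mock IP all 4 differences, -5.13 and -15.9 points in ORF2p RIP and -10.1 and -5.52 points in ORF1p RIP, gave p = 0.0571 in the exact permutation test, the smallest possible with 4 against 3 (adjusted p = 0.0686). No share difference passed 0.05 after adjustment. Against total RNA the shares of ORF2p RIP in L1PA2 (difference -0.533 points, exact permutation p = 0.571) and of ORF1p RIP in L1PA3 (0.729 points, exact permutation p = 0.59) overlapped those of total RNA.

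The older relatives of these subfamilies, taken at all lengths, were higher with ORF2p than with ORF1p in 5 of 6 cases. In ORF2p RIP over mock IP the fitted log2 changes were L1PA4 1.72, L1PA5 1.75, L1PA6 1.69, L1PA7 1.59, L1PA8 0.42 and L1PA8A 1.67, all called except L1PA8 (adjusted p = 0.119). In ORF1p RIP over mock IP they were L1PA4 0.48, L1PA5 0.28, L1PA6 0.47, L1PA7 0.12, L1PA8 0.07 and L1PA8A -0.13, none of them called. Set directly against ORF1p RIP, ORF2p RIP differed by L1PA4 1.24, L1PA5 1.48, L1PA6 1.22, L1PA7 1.47, L1PA8 0.35 and L1PA8A 1.79, again all called except L1PA8 (adjusted p = 0.121). L1HS, the youngest, had 3.21 in ORF2p RIP and 3.83 in ORF1p RIP. In ORF1p RIP the change of truncated L1PA3 lay between those of truncated L1PA2 and L1PA4.

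The level per base was higher in the longest truncated copies than in the shortest in every RIP library of both subfamilies. The level in CPM per kb of sequence averaged 0.891 ± 0.0475 in ORF2p RIP, 0.747 ± 0.126 in ORF1p RIP (SD, n = 4 each), 0.545 ± 0.0190 in mock IP (n = 3) and 0.390 ± 0.0224 in total RNA (n = 6) for L1PA2 copies of 300 bases or less. For L1PA2 copies of 5001 to 5900 bases they averaged 9.50 ± 0.750, 3.89 ± 2.83, 0.949 ± 0.126 and 1.01 ± 0.544 in the same order of groups. The last L1PA2 bin holds the leading copy, described further on. Without it the bin averaged 4.06 ± 0.335, 3.602 ± 2.64, 0.653 ± 0.0868 and 0.648 ± 0.335 CPM per kb in these groups. In ORF2p RIP that is below the 4.42 of the bin before it. The L1PA2 means of ORF2p RIP were higher at every step of length up to 5000 bases, and those of mock IP and total RNA were lowest between 300 and 1000 bases. For L1PA3 the corresponding means were 0.778, 0.652, 0.603 and 0.465 up to 300 bases, and 1.81, 1.27, 0.376 and 0.403 from 5001 to 5900 bases. The longest L1PA3 bin lay above the shortest in 4 of 4 ORF2p RIP and 4 of 4 ORF1p RIP libraries, in 0 of 3 mock IP libraries and in 2 of 6 total RNA libraries, both of them of series bl. Series bl averaged 0.510 CPM per kb in the longest and 0.489 in the shortest L1PA3 bin, and series b 0.188 and 0.416. A read of a very short copy can also extend into its flanks, and how such reads were assigned is not stated.

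**Figure D2:**
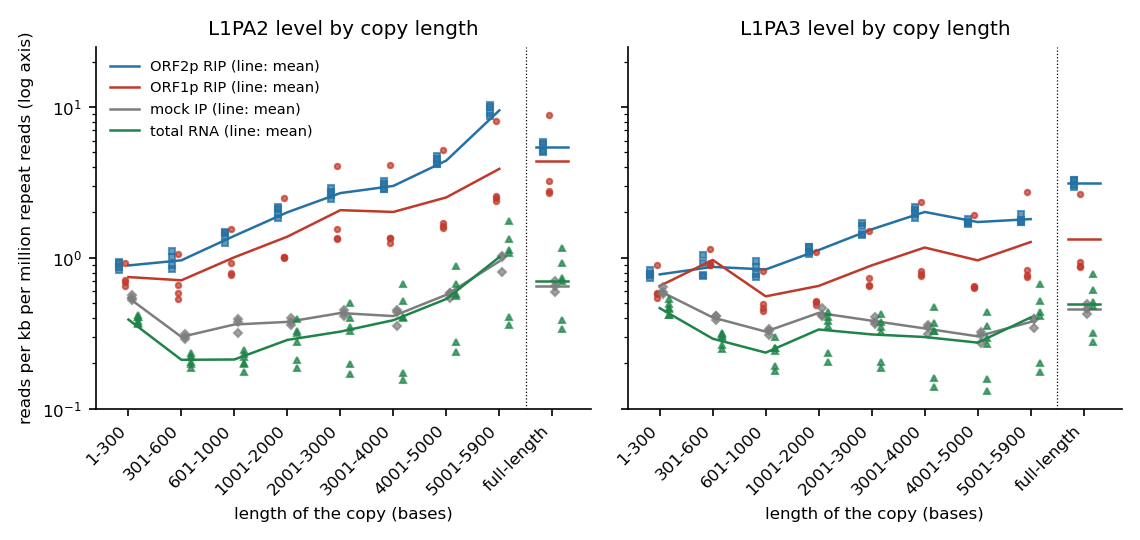
CPM per kb (log axis) of L1PA2 and L1PA3 copies by length bin, with full-length copies beyond the dotted line; points are libraries and lines join the group means of ORF2p RIP, ORF1p RIP, mock IP and total RNA. The mean of the longest L1PA2 bin is 9.50 in ORF2p RIP and 0.949 in mock IP, or 4.06 and 0.653 without its leading copy. In the shortest L1PA2 bin the means are 0.891 in ORF2p RIP, 0.545 in mock IP and 0.390 in total RNA.

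The fitted changes over mock IP were larger in the longest bin than in the shortest, in both subfamilies and both RIPs. Taken from the shortest of the 8 bins to the longest, the fitted log2 changes of L1PA2 in ORF2p RIP over mock IP were 0.71, 1.69, 1.95, 2.41, 2.64, 2.87, 2.96 and 3.32. Without the leading copy the last of these was 2.64, below the 2 bins before it. All passed an adjusted p of 0.05, and 7 of 8 were called higher. Among the 1090 sums fitted with the bins, 7.61% were called higher and 1.65% lower. Those of L1PA3 were 0.37, 1.11, 1.37, 1.38, 2.01, 2.56, 2.52 and 2.26, 7 of 8 called. Scaled to library totals, the L1PA3 bin of 301 to 600 bases fell short of 2-fold (0.82). The L1PA2 bins changed in ORF1p RIP over mock IP by 0.45, 1.25, 1.48, 1.88, 2.26, 2.29, 2.14 and 2.04. Of these 7 of 8 were called, against 8.26% of sums higher and 9.27% lower. The L1PA3 bins changed by 0.11, 1.27, 0.78, 0.59, 1.22, 1.78, 1.67 and 1.76, with 5 of 8 called. Without ORF1p RIP replicate 3, the L1PA2 bin of 301 to 600 bases (0.98) and the L1PA3 bin of 2001 to 3000 bases (0.84) fell just short of 2-fold. The shortest bin was the lowest of the 8 in all 4 of these lists, and single copies weighed on the L1PA3 list of ORF1p RIP. A pair of adjoining L1PA3 entries in LPP, the gene of a LIM domain protein of cell adhesions, held 6.58% of the reads of the 301 to 600 base bin in ORF2p RIP, 45.6% in ORF1p RIP, 2.003% in mock IP and 1.40% in total RNA. The log2 ratio of the means of ORF1p RIP and mock IP in that bin was 1.27 with them and 0.42 without them.

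**Figure D3:**
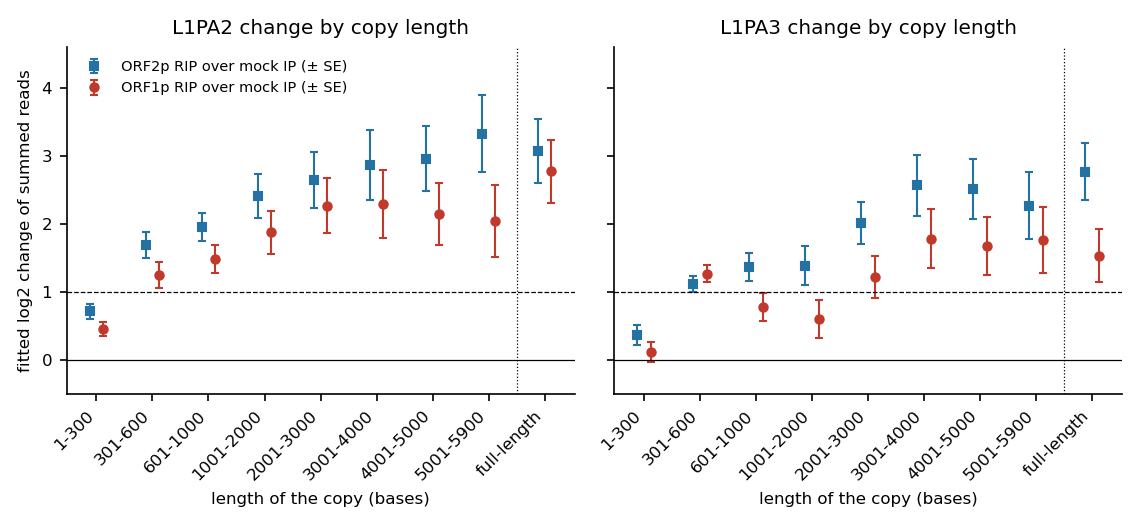
Fitted log2 change of summed reads in ORF2p RIP over mock IP and in ORF1p RIP over mock IP for each length bin of L1PA2 and L1PA3 and for full-length copies, with bars of 1 SE. The shortest bins lie lowest, at 0.71 and 0.45 for L1PA2 in ORF2p RIP and ORF1p RIP, and ORF2p RIP lies at or above ORF1p RIP in every bin except that of 301 to 600 bases in L1PA3.

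ORF2p RIP differed from ORF1p RIP by log2 changes of 0.26, 0.44, 0.47, 0.54, 0.38, 0.57, 0.81 and 1.29 in the L1PA2 bins and 0.26, -0.15, 0.59, 0.79, 0.79, 0.78, 0.84 and 0.51 in the L1PA3 bins. Only the L1PA2 bin of 5001 to 5900 bases was called higher (adjusted p = 0.0273), where 12.4% of sums were higher and 6.33% lower, and without the copy described next it changed by 0.17 (adjusted p = 0.749). The call was also lost when ORF1p RIP replicates 1, 2 and 4 and replicate 2 of ORF2p RIP were left out singly, at 1.12, 1.11, 1.13 and 1.25. With ORF1p RIP replicate 3 left out, 7 more bins were called, all over 1000 bases and with changes of 1.16 to 1.43.

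Against total RNA, the L1PA2 bins changed by 1.19, 2.19, 2.72, 2.81, 3.05, 2.96, 3.05 and 3.23 in ORF2p RIP, with 8 of 8 called, and the L1PA3 bins by 0.74, 1.58, 1.83, 1.75, 2.31, 2.75, 2.66 and 2.17, with 7 of 8 called (6.33% of sums higher, 1.28% lower). ORF1p RIP differed from total RNA by 0.94, 1.75, 2.25, 2.27, 2.67, 2.38, 2.24 and 1.94 in the L1PA2 bins, with 7 of 8 called, and by 0.49, 1.73, 1.24, 0.96, 1.52, 1.97, 1.81 and 1.66 in the L1PA3 bins, with 6 of 8 called (9.91% of sums higher, 8.53% lower). Without ORF1p RIP replicate 3, the L1PA3 bins of 601 to 1000 and of 5001 to 5900 bases were no longer called there (0.99 and 0.96), and the L1PA2 bin up to 300 bases was under 2-fold in ORF2p RIP on library totals (0.79). The mock IP bins differed from total RNA by -0.10 to 0.77, and 0 of 16 were called higher by edgeR, with 6 at an unadjusted p under 0.05 and 3 at an adjusted p under 0.05 but under 2-fold, where 0.734% of sums were called higher.

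A ratio within each library gives the dependence on length without any scaling, and it was added after the length bins had been seen. The log2 ratio of the level per kb of copies over 2000 bases to that of copies of 1000 bases or less was, in L1PA2, 2.08 ± 0.12 in ORF2p RIP (SD, n = 4), 1.46 ± 0.43 in ORF1p RIP (n = 4), 0.66 ± 0.057 in mock IP (n = 3) and 1.03 ± 0.71 in total RNA (n = 6). In L1PA3 it was 1.05 ± 0.12 in ORF2p RIP (SD, n = 4), 0.46 ± 0.45 in ORF1p RIP (n = 4), -0.10 ± 0.05 in mock IP (n = 3) and 0.094 ± 0.44 in total RNA (n = 6). Both RIPs lay above mock IP without overlap in both subfamilies, by 1.42 and 1.15 in ORF2p RIP and by 0.80 and 0.56 in ORF1p RIP. Each gave p = 0.0571 in the exact two-sided permutation test, again the smallest possible (adjusted p = 0.098 over 12 tests of this ratio). The L1PA2 copies over 2000 bases include the leading copy. Without it ORF2p RIP still lay above mock IP without overlap in L1PA2, by a smaller gap. The 6 total RNA libraries fell apart by their series of descriptions, with L1PA2 ratios of 0.19 and 0.10 in series b and 1.80, 1.23, 1.29 and 1.56 in series bl, so that the mock IP values of 0.71, 0.67 and 0.60 lay between them. The limit of 5900 bases fell in a sparse stretch below the lengths of 6001 to 6100 bases, which held 942 L1PA2 and 655 L1PA3 copies. For the lengths next to this limit, CPM per kb was taken on library totals, without TMM factors. The 14 L1PA2 copies of 5801 to 5900 bases held 28.7 in ORF2p RIP, 5.86 in ORF1p RIP, 3.07 in mock IP and 3.57 in total RNA CPM per kb. The 59 of 5901 to 6000 bases held 4.02 in ORF2p RIP, 2.91 in ORF1p RIP, 0.683 in mock IP and 0.773 in total RNA. In L1PA3 the 14 copies just inside held 1.73 in ORF2p RIP, 0.959 in ORF1p RIP, 0.238 in mock IP and 0.275 in total RNA CPM per kb. The 90 just outside held 2.07 in ORF2p RIP, 1.203 in ORF1p RIP, 0.364 in mock IP and 0.435 in total RNA.

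The excess just inside the L1PA2 limit was mostly that of 1 copy, which led all truncated copies in level. It is an L1PA2 entry at chr8:47095090-47100980, minus strand, 5891 bases, on hg38, and it reaches 61 bases into the span of LOC105375817 (chr8:47100920-47123457) and otherwise lies outside genes. It had 2418, 2372, 2086 and 2042 CPM in the ORF2p RIP libraries and 91.9, 94.3, 274 and 94.9 CPM in ORF1p RIP, against 137, 130.1 and 105 CPM in mock IP. Total RNA held a low of 42.2, a median of 172 and a high of 257 CPM. All 4 ORF2p RIP values lay above every value of the other groups, which overlapped one another. The fitted change was 4.17 ± 0.58 (SE; adjusted p = 5.2e-06) in ORF2p RIP over mock IP, 0.16 (adjusted p = 0.801) in ORF1p RIP over mock IP and 4.01 (adjusted p = 1.89e-07) in ORF2p RIP over ORF1p RIP. This single copy held 19.99% to 22.6% of the truncated L1PA2 reads in ORF2p RIP, 2.14% to 2.30% in ORF1p RIP, 7.13% to 8.11% in mock IP and 5.79% to 12.9% in total RNA. Without it the sum of truncated L1PA2 changed by 2.46 in ORF2p RIP over mock IP, 2.02 in ORF1p RIP over mock IP and 0.45 (adjusted p = 0.25) in ORF2p RIP over ORF1p RIP. The 10 copies with the most reads in a library held on average 31.7% of truncated L1PA2 reads in ORF2p RIP, 15.6% in ORF1p RIP, 19.5% in mock IP and 24.4% in total RNA. Of truncated L1PA3 reads they held 12.01%, 13.2%, 11.7% and 15.2%, in the same order of groups.

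**Figure D4:**
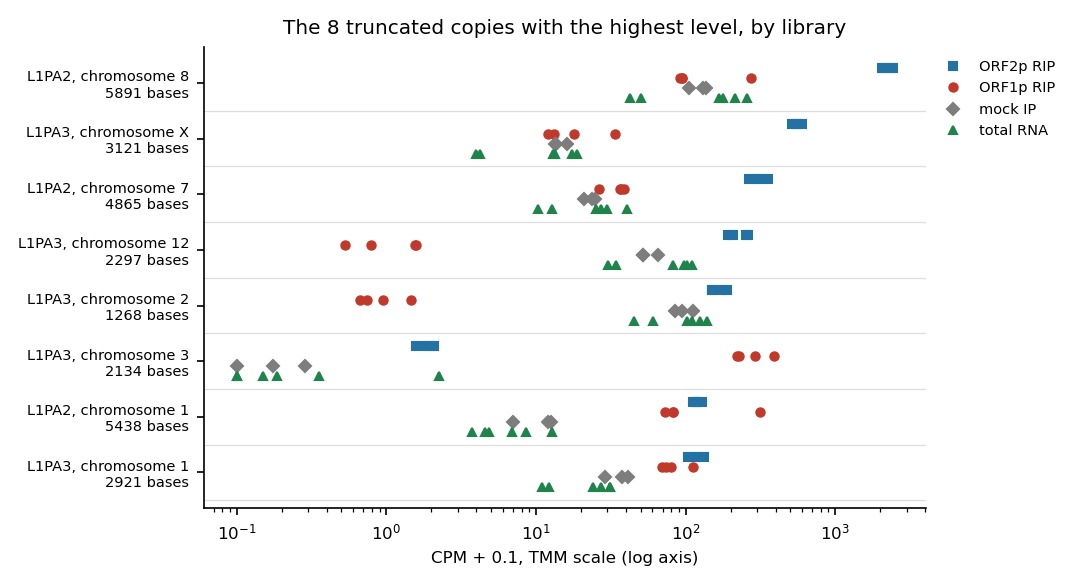
CPM (plus 0.1, log axis) of the 8 truncated copies with the highest mean level over the groups, 1 point per library, in ORF2p RIP, ORF1p RIP, mock IP and total RNA. The first 3 stand highest in ORF2p RIP, the 2 in the middle are lowest in ORF1p RIP, and the chromosome 3 copy stands highest in ORF1p RIP.

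The next copies by level fell into several patterns. High with ORF2p alone was an L1PA3 copy in TBC1D8B, on the strand of that gene, which encodes a TBC domain protein of Rab GTPase regulation (chrX:106827828-106830948, plus strand, 3121 bases). It had 556, 599, 546 and 511 CPM in the ORF2p RIP libraries and 11.9, 17.7, 33.6 and 13.1 CPM in ORF1p RIP, against 15.9, 13.5 and 13.2 CPM in mock IP. Total RNA held a low of 3.85, a median of 13.2 and a high of 18.8 CPM. ORF1p RIP, mock IP and total RNA overlapped there, and ORF2p RIP lay above them all. Its change was 5.28 (adjusted p = 7.94e-08) in ORF2p RIP over mock IP, 0.42 (adjusted p = 0.46) in ORF1p RIP over mock IP and 4.86 (adjusted p = 2.35e-09) in ORF2p RIP over ORF1p RIP. ORF2p RIP was also highest at an L1PA2 copy outside genes (chr7:93586903-93591767, minus strand, 4865 bases), with 355, 312, 266 and 294 CPM in ORF2p RIP, 36.5, 37.1, 38.3 and 26.4 CPM in ORF1p RIP and 24.5, 20.7 and 23.6 CPM in mock IP. The change was 3.74 (adjusted p = 3.93e-07) in ORF2p RIP over mock IP and 0.59 (adjusted p = 0.202) in ORF1p RIP over mock IP, where every ORF1p RIP library lay above every mock IP library.

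Nearly absent from ORF1p RIP were an L1PA3 copy in CLEC6A, the gene of the fungal sensor dectin-2 (chr12:8468609-8470905, plus strand, 2297 bases), and one outside genes (chr2:187659695-187660962, minus strand, 1268 bases). The CLEC6A copy had 193, 260.0, 253 and 207 CPM in the ORF2p RIP libraries and 0.426, 1.49, 1.45 and 0.684 CPM in ORF1p RIP, against 51.5, 65.5 and 51.9 CPM in mock IP. Total RNA held a low of 30.4, a median of 89.6 and a high of 110.1 CPM. At the other copy the values were 149.7, 175, 188 and 150.1 CPM in the ORF2p RIP libraries and 0.853, 1.36, 0.644 and 0.570 CPM in ORF1p RIP, against 84.2, 112 and 93.97 CPM in mock IP. Total RNA held a low of 44.8, a median of 106 and a high of 138 CPM. In both, every ORF1p RIP value lay below every value of the other groups. The changes in ORF1p RIP over mock IP were -5.84 (adjusted p = 3.66e-10) and -6.79 (adjusted p = 4.59e-12), and in ORF2p RIP over mock IP 2.02 (adjusted p = 0.00106) and 0.78 (adjusted p = 0.134). The CLEC6A copy is among the more divergent, at 11.2%.

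The opposite pattern was that of an L1PA3 copy outside genes (chr3:145821261-145823394, minus strand, 2134 bases), which lies 1 base from an L1PA2 or L1PA3 entry on the other strand. It had 1.49, 1.85, 1.98 and 1.71 CPM in the ORF2p RIP libraries and 225, 222, 387 and 291 CPM in ORF1p RIP, against 0.184, 0 and 0.0751 CPM in mock IP. Total RNA held a low of 0, a median of 0.0673 and a high of 2.15 CPM. Only ORF1p RIP stood high, at an adjusted p of 9.61e-11 against mock IP, where the level was too near 0 for a fold, and ORF2p RIP over ORF1p RIP was -7.32 (adjusted p = 2.71e-10). High in both RIPs was an L1PA2 copy on the opposite strand of SRGAP2C, a human-specific duplicate of a neuronal signalling gene (chr1:121309426-121314863, minus strand, 5438 bases). It had 117, 129, 112 and 119 CPM in the ORF2p RIP libraries and 72.5, 82.7, 314 and 81.7 CPM in ORF1p RIP, against 12.5, 11.8 and 6.91 CPM in mock IP. Total RNA held a low of 3.61, a median of 5.75 and a high of 12.6 CPM. This entry adjoins another of the same strand. Both RIPs lay above mock IP and total RNA, by 3.52 (adjusted p = 1.23e-05) in ORF2p RIP over mock IP and 3.72 (adjusted p = 1.31e-06) in ORF1p RIP over mock IP, and without ORF1p RIP replicate 3 the change in ORF1p RIP was 2.92. SRGAP2C has near-identical relatives, so that reads there can also be shared between gene copies. The eighth copy by level lies in EXOSC10, the gene of a nuclease of the nuclear RNA exosome, on the strand of the gene (chr1:11083624-11086544, minus strand, 2921 bases). Its means were 118 ± 12.1 CPM in ORF2p RIP, 83.97 ± 19.5 CPM in ORF1p RIP (SD, n = 4 each), 35.7 ± 6.08 CPM in mock IP (n = 3) and 22.7 ± 9.08 CPM in total RNA (n = 6).

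Tested copy by copy, more truncated copies rose than fell with each protein. All 387893 loci of every subfamily that passed the filter were fitted together, and a copy that is high in only 1 group passes that filter through that group, so the counts over the 4495 copies that passed describe them and support nothing about all members. For ORF2p RIP over mock IP, 2925 copies were called higher and 55 lower, with a median log2 change of 2.45, against 10.1% higher, 9.74% lower and a median of -0.29 over all loci. For ORF1p RIP over mock IP, 2106 were called higher and 309 lower (median 1.59), against 24.1% and 26.9% of all loci (median -0.03). In ORF2p RIP over ORF1p RIP 1417 were called higher and 276 lower (median 0.79), against 27.4% and 27.4% (median -0.073), so the 31.5% higher among the copies stood near the background and the 6.14% lower did not.

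Restricting the copies by their level in the group compared against removes the route through the RIP where that group is mock IP or total RNA. Of the 1159 copies at 1 CPM or more in mock IP, 527 (45.5%) were called higher and 42 (3.62%) lower in ORF2p RIP, against 8.1% and 17.6% of all loci at that level. In ORF1p RIP 416 (35.9%) of them were called higher and 243 (20.97%) lower, against 13% and 43.7%. Of the 2480 copies at 1 CPM or more in ORF1p RIP, 458 (18.5%) were called higher and 262 (10.6%) lower in ORF2p RIP over ORF1p RIP, against 6.31% and 55.3%. There the group compared against is itself a RIP, so the route through a RIP is not removed. Against total RNA, of the 816 copies at 1 CPM or more there, 458 (56.1%) were called higher and 28 (3.43%) lower in ORF2p RIP (all loci 10.6% and 26.9%). In ORF1p RIP 351 (43.01%) were higher and 158 (19.4%) lower (all loci 14.3% and 47%), and in mock IP 11 and 1 (all loci 2.51% and 1.73%). Choosing loci by the level of the group compared against tilts these counts toward lower calls, in the copies and in the background alike.

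Counts against total RNA ran the same way, with 3585 of 4495 higher and 52 lower in ORF2p RIP (all loci 14.7% and 15.1%) and 2851 higher and 241 lower in ORF1p RIP (all loci 28.7% and 28.7%). In mock IP over total RNA 143 were called higher and 2 lower, against 2.69% and 0.733% of all loci. By subfamily, 933 of 1292 L1PA2 copies and 1992 of 3203 L1PA3 copies were higher in ORF2p RIP over mock IP, and 768 and 1338 in ORF1p RIP over mock IP, where 50 L1PA2 and 259 L1PA3 copies were lower. Among L1PA2 copies over 3000 bases, 239 of 240 passed the filter, and 225 were higher in ORF2p RIP over mock IP. Among those of 300 bases or less the counts were 21 higher and 5 lower of 68 tested.

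Among the copies of smallest p of their length bins in ORF2p RIP over mock IP, several lie inside genes. An L1PA3 copy in MED21, a subunit of the Mediator complex (chr12:27035440-27037559, minus strand, 2120 bases), had 69.97, 78.4, 90.7 and 78.6 CPM in ORF2p RIP, 7.46, 6.08, 4.02 and 3.87 CPM in ORF1p RIP and 8.47, 9.23 and 6.61 CPM in mock IP. Its change was 3.29 (adjusted p = 1.32e-07) in ORF2p RIP over mock IP. An L1PA2 copy on the strand of REL, an NF-kappa-B subunit (chr2:60928171-60929829, plus strand, 1659 bases), had 79.4, 69.02, 64.1 and 68.7 CPM in ORF2p RIP, 10.1, 9.80, 22.4 and 12.2 CPM in ORF1p RIP and 3.68, 5.71 and 5.11 CPM in mock IP. It rose by 3.86 (adjusted p = 1.64e-07) in ORF2p RIP and 1.49 (adjusted p = 0.00238) in ORF1p RIP over mock IP. In neither copy did ORF2p RIP overlap another group. The copy of SUPT3H, a gene of the SAGA coactivator, lies on the opposite strand (chr6:45176062-45181869, plus strand, 5808 bases), with 49.6, 47.2, 45.7 and 43.5 CPM in ORF2p RIP, 6.503, 6.20, 8.21 and 6.95 CPM in ORF1p RIP and 5.34, 4.31 and 5.41 CPM in mock IP. Its change was 3.21 (adjusted p = 4.95e-07) in ORF2p RIP over mock IP. One of the shortest, an L1PA2 copy on the opposite strand of the zinc finger gene ZNF493 (chr19:21427295-21427447, minus strand, 153 bases), had 15.2, 16.5, 15.3 and 11.2 CPM in ORF2p RIP, 1.39, 0.868, 4.35 and 0.798 CPM in ORF1p RIP and 0.982, 1.21 and 0.977 CPM in mock IP. The change was 3.77 (adjusted p = 7.95e-07) in ORF2p RIP over mock IP. Its values were whole numbers in 11 of 17 libraries, more than in any other copy named here. Outside genes, an L1PA3 copy (chr6:86732971-86737236, plus strand, 4266 bases) had 45.3, 54.7, 45.3 and 37.9 CPM in ORF2p RIP, 1.17, 2.36, 2.90 and 2.51 CPM in ORF1p RIP and 2.27, 1.82 and 1.80 CPM in mock IP. The change was 4.53 (adjusted p = 6.64e-08) in ORF2p RIP over mock IP. An L1PA3 copy at chr11:79876244-79877122, minus strand, 879 bases, had 9.46, 10.5, 17.5 and 6.64 CPM in ORF2p RIP and at most 0.496 CPM in any library of the other groups. Among the largest fitted changes in that comparison were those of copies at or near 0 in mock IP, which give no measured fold. An L1PA3 copy on the opposite strand of AFF3, a gene of a transcription elongation factor family (chr2:99741130-99741871, plus strand, 742 bases), had 2.45, 4.31, 4.80 and 2.19 CPM in ORF2p RIP, 0, 0.248, 3.06 and 0.456 CPM in ORF1p RIP and no reads in mock IP (adjusted p = 1.73e-05 in ORF2p RIP over mock IP). One outside genes (chr13:87897739-87898649, plus strand, 911 bases) had 3.72, 2.46, 5.64 and 1.64 CPM in ORF2p RIP, at most 0.372 CPM in ORF1p RIP and no reads in mock IP (adjusted p = 1.72e-06).

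Other named copies were higher in ORF1p RIP than in the other groups. The LPP pair lies end to end on opposite strands, and the plus strand entry (chr3:188885957-188886311, plus strand, 355 bases) had 15.5, 10.5, 11.2 and 16.5 CPM in ORF2p RIP, 110.5, 128, 218 and 131 CPM in ORF1p RIP and 1.90, 1.88 and 2.78 CPM in mock IP. It rose by 6.07 (adjusted p = 7.33e-12) in ORF1p RIP and by 2.62 (adjusted p = 1.09e-05) in ORF2p RIP over mock IP, and ORF2p RIP over ORF1p RIP was -3.45 (adjusted p = 1.61e-09). Its partner on the minus strand (chr3:188885495-188885956), picked out after its values were seen, had means of 25.4, 159, 3.44 and 1.72 CPM in ORF2p RIP, ORF1p RIP, mock IP and total RNA. A short L1PA3 copy within the spans of CLIP1, the gene of a microtubule plus-end protein, and of the ribosomal protein pseudogene RPL21P1 (chr12:122364898-122365245, plus strand, 348 bases) was high in ORF1p RIP alone, at 0.532, 0.123, 0.104 and 0.548 CPM in ORF2p RIP, 46.8, 45.9, 60.2 and 70.5 CPM in ORF1p RIP and 0.552, 0.911 and 0.601 CPM in mock IP. Its change in ORF1p RIP over mock IP was 6.32 (adjusted p = 1.49e-11), and in ORF2p RIP over ORF1p RIP -7.27 (adjusted p = 5.34e-13). An L1PA2 copy outside genes (chr6:104452400-104457460, plus strand, 5061 bases) had 8.83, 13.5, 8.66 and 12.2 CPM in ORF2p RIP, 46.5, 43.7, 122 and 45.4 CPM in ORF1p RIP and 1.60, 0.850 and 0.826 CPM in mock IP. It rose by 5.86 (adjusted p = 7.76e-09) in ORF1p RIP and 3.29 (adjusted p = 8.93e-05) in ORF2p RIP over mock IP. In ALCAM, which encodes a cell adhesion molecule, an L1PA3 copy on the opposite strand (chr3:105381939-105382840, minus strand, 902 bases) had 0.213, 0, 0 and 0 CPM in ORF2p RIP, 5.44, 8.31, 5.31 and 3.53 CPM in ORF1p RIP and 0.307, 0.304 and 0.676 CPM in mock IP. It rose by 3.73 (adjusted p = 1.6e-06) in ORF1p RIP over mock IP. The L1PA3 copy at chr4:36976545-36977691, plus strand, 1147 bases, had 17.7, 17.3, 24.6 and 14.04 CPM in ORF2p RIP, 36.04, 44.2, 118 and 50.6 CPM in ORF1p RIP and 5.22, 0.121 and 4.36 CPM in mock IP. Total RNA held at most 0.198 CPM. It was called higher in ORF1p RIP over total RNA (adjusted p = 7.74e-14), where total RNA was too near 0 for a fold. Among the largest fitted changes in ORF1p RIP over mock IP were those of 2 copies outside genes with little or no signal in mock IP. The L1PA3 copy at chr1:222280207-222281016, minus strand, 810 bases, had 0.851, 0.492, 0.731 and 0.411 CPM in ORF2p RIP, 5.86, 4.59, 5.31 and 5.81 CPM in ORF1p RIP and no reads in mock IP (adjusted p = 2.21e-09). The L1PA2 copy at chr8:113673690-113674351, minus strand, 662 bases, had 1.91, 0.246, 0.418 and 1.71 CPM in ORF2p RIP, 5.97, 6.45, 17.2 and 8.21 CPM in ORF1p RIP and 0, 0.243 and 0 CPM in mock IP (adjusted p = 4.02e-08).

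Copies called lower were fewer. An L1PA3 entry outside genes (chr2:67336803-67336847, minus strand, 45 bases) had 23.8, 18.2, 20.04 and 28.5 CPM in ORF2p RIP, 0.320, 0.124, 0 and 0.114 CPM in ORF1p RIP and 18.5, 17.002 and 20.1 CPM in mock IP. It was called lower in ORF1p RIP over mock IP (adjusted p = 3.74e-11), with too few ORF1p RIP reads for a fold. An L1PA3 copy within the spans of the zinc finger gene ZNF385D and its antisense RNA (chr3:21569695-21570065, plus strand, 371 bases) had 1.91, 0.738, 1.36 and 0.890 CPM in ORF2p RIP, 4.73, 5.16 and 4.36 CPM in mock IP and a value of 0 in all 4 ORF1p RIP libraries (adjusted p = 2.7e-08 in ORF1p RIP over mock IP). Whether the reads there came from the gene or from its antisense partner cannot be told, since no source used here says that strand was used in counting. That copy was also lower in ORF2p RIP over mock IP, at -1.96 (adjusted p = 0.00149). Also lower in ORF2p RIP over mock IP were 3 L1PA3 copies in genes. One lies in RCOR3, a corepressor gene (chr1:211262872-211263314, minus strand, 443 bases), and changed by -2.19 (adjusted p = 0.000598). Another lies in BICD1, a dynein adaptor gene (chr12:32110749-32110999, plus strand, 251 bases), and changed by -1.67 (adjusted p = 0.00252). The last lies in EDIL3, the gene of an extracellular integrin ligand (chr5:84309343-84309989, minus strand, 647 bases), and changed by -1.72 (adjusted p = 0.00476). In PANK3, which encodes a kinase of coenzyme A synthesis, an L1PA3 copy on the strand of the gene (chr5:168573517-168574376, minus strand, 860 bases) had 1.28, 2.21, 1.57 and 1.71 CPM in ORF2p RIP and 4.64 to 7.07 CPM in total RNA, a change of -1.84 (adjusted p = 9.94e-05) in ORF2p RIP over total RNA.

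The RNA around a copy was measured by the other repeats within 10 kb of either end, leaving out L1HS and the L1PA subfamilies. Over all 7947 flanks tested, 14.3% were called higher and 10.2% lower in ORF2p RIP over mock IP, and 24.7% and 38.4% in ORF1p RIP over mock IP. Of the 1309 copies called higher in ORF2p RIP over mock IP whose flank was tested, 285 (21.8%) had a flank called higher as well, and the median log2 changes were 2.76 for the copies and 0.11 for their flanks. Of the 1008 copies called higher in ORF1p RIP over mock IP, 450 (44.6%) had a higher flank, with medians of 2.45 and 0.88. Copies lower in ORF1p RIP mostly had lower flanks: 258 of 298 (86.6%) had a lower flank, with medians of -2.90 for the copies and -4.62 for the flanks. In ORF2p RIP over ORF1p RIP the flank was called higher beside 67.2% of the 867 higher copies and lower beside 70.5% of the 237 lower ones, where 41.4% and 25.3% of all flanks were. Neighbouring copies share flanks, so these shares are a description and carry no test.

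**Figure D5:**
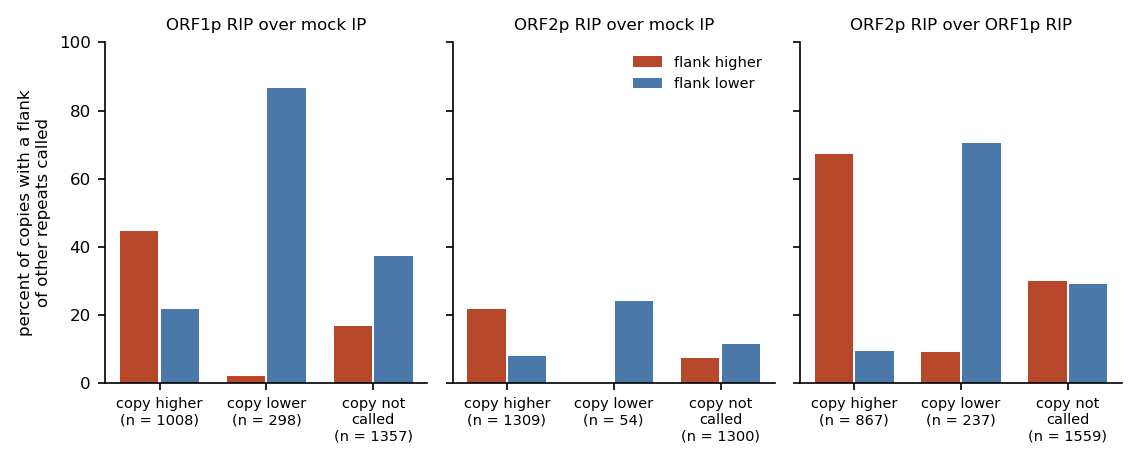
Percent of truncated copies whose flanking repeats (within 10 kb, other than L1HS and L1PA) were called higher or lower, for copies called higher, called lower and not called in ORF1p RIP over mock IP, ORF2p RIP over mock IP and ORF2p RIP over ORF1p RIP; n is the number of copies with a flank tested. Flanks were lower beside 86.6% of the copies lower in ORF1p RIP over mock IP, and higher beside 21.8% of the copies higher in ORF2p RIP over mock IP.

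The named copies showed both cases. Flanks were not called changed in TBC1D8B, with -0.93 (adjusted p = 0.219) in ORF2p RIP over mock IP. Nor were they at the chromosome 7 copy (0.25, adjusted p = 0.501), or at the SRGAP2C copy (-0.65, adjusted p = 0.127 in ORF2p RIP, and -0.67, adjusted p = 0.0783 in ORF1p RIP, over mock IP). The TBC1D8B flank held few reads, with means of 0.688 CPM in ORF2p RIP and 1.40 CPM in mock IP, so its change is poorly measured. The CLIP1 flank changed by 0.21 (adjusted p = 0.632) in ORF1p RIP over mock IP. Flanks moved with the copy in MED21 (3.30, adjusted p = 4.65e-10 in ORF2p RIP over mock IP), in REL (3.51, adjusted p = 2.53e-11), in LPP (6.47, adjusted p = 6.49e-14 in ORF1p RIP over mock IP) and in CLEC6A (-3.94, adjusted p = 6.47e-12). The same held at the chromosome 2 copy that ORF1p RIP lacked (-6.82, adjusted p = 2.66e-16) and in ALCAM (3.73, adjusted p = 4.11e-11). Around SUPT3H, where the copy was higher in ORF2p RIP, the flank changed by -0.82 (adjusted p = 0.0481) in ORF2p RIP and 1.94 (adjusted p = 3.05e-06) in ORF1p RIP over mock IP. Beside the leading copy of chromosome 8 the flank changed by 0.92 (adjusted p = 0.00636) in ORF2p RIP over mock IP, a rise under 2-fold. In ORF1p RIP over mock IP it changed by -1.84 (adjusted p = 8.58e-07), while the copy itself was not called changed in ORF1p RIP. The flank of the chromosome 3 copy that was high in ORF1p RIP alone was not tested.

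Split by gene context, the sums of truncated copies rose in nearly every division. In ORF2p RIP over mock IP, L1PA2 copies outside genes changed by 2.74 ± 0.40 (SE; adjusted p = 0.000101), those on a gene's own strand by 2.22 ± 0.36 (SE; adjusted p = 0.000202) and those on the opposite strand by 2.28 ± 0.32 (SE; adjusted p = 7.09e-05), where 7.29% of the 1084 sums of that table were called higher. For L1PA3 the changes were 2.15 ± 0.36 (SE; adjusted p = 0.000279), 1.46 ± 0.36 (SE; adjusted p = 0.00588) and 1.72 ± 0.20 (SE; adjusted p = 8.89e-06). In ORF1p RIP over mock IP they were 2.24, 1.70 and 1.89 for L1PA2 and 1.33, 0.81 and 1.19 for L1PA3, all called except the L1PA3 copies on a gene's own strand (adjusted p = 0.0679), where 7.84% of sums were higher and 9.13% lower. Without ORF1p RIP replicate 3, the L1PA3 copies outside genes (0.83) and on the opposite strand (0.92) were under 2-fold there and no longer called. Copies outside genes had the highest fitted change of these 3 contexts in all 4 lists, although not in L1PA3 in ORF1p RIP without replicate 3, and the difference between contexts was not tested. The 17 L1PA2 copies that reach partly into a gene changed by 4.07 ± 0.59 (SE; adjusted p = 9.23e-05) in ORF2p RIP over mock IP and by 0.61 ± 0.51 (SE; adjusted p = 0.33) in ORF1p RIP over mock IP. The leading copy is one of them.

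Sums by divergence, by chromosome and by neighbouring entry were added after the data had been seen. L1PA2 copies up to 1% divergent from their consensus changed by 2.44 ± 0.35 (SE; adjusted p = 8.28e-05) in ORF2p RIP and 2.40 ± 0.35 (SE; adjusted p = 2.84e-05) in ORF1p RIP over mock IP. Those over 5% divergent changed by 1.99 ± 0.32 (SE; adjusted p = 0.000186) and 1.74 ± 0.31 (SE; adjusted p = 0.000225). In L1PA3 the corresponding changes were 1.18 ± 0.20 (SE; adjusted p = 0.000303) and 0.71 ± 0.20 (SE; adjusted p = 0.00653) up to 1%. They were 2.06 ± 0.30 (SE; adjusted p = 0.000103) and 0.86 ± 0.29 (SE; adjusted p = 0.0199) over 5%. The 188 L1PA3 copies up to 1% covered 37.2 kb and the 848 over 5% covered 818 kb. These L1PA3 classes therefore differ in length as well, and divergence and length were not separated. The L1PA3 copies over 5% were called higher in ORF2p RIP over ORF1p RIP as well, at 1.197 ± 0.27 (SE; adjusted p = 0.00117). L1PA2 copies of 2 to 3% divergence, the class of the leading copy, were too, at 1.49 ± 0.38 (SE; adjusted p = 0.0032). The L1PA3 sum over 5% averaged 984 CPM in ORF2p RIP and 429 CPM in ORF1p RIP. It holds the CLEC6A copy, with means of 228 CPM in ORF2p RIP and 1.01 CPM in ORF1p RIP. The sum was not fitted without that copy. Truncated copies on chromosome X changed by 2.56 ± 0.43 (SE; adjusted p = 0.000333) in L1PA2 and 2.25 ± 0.32 (SE; adjusted p = 7.48e-05) in L1PA3 in ORF2p RIP over mock IP. On autosomes the changes were 2.70 ± 0.40 (SE; adjusted p = 0.000105) and 1.73 ± 0.32 (SE; adjusted p = 0.000703). L1PA3 copies on chromosome X were called higher in ORF2p RIP over ORF1p RIP (1.37 ± 0.28, adjusted p = 0.000579), a sum that holds the TBC1D8B copy. Those on autosomes were not (0.55 ± 0.28, adjusted p = 0.11), and that difference was not tested. Copies within 50 bases of an inverted L1PA2 or L1PA3 entry changed by 2.42 ± 0.37 (SE; adjusted p = 0.000128) in L1PA2 and 1.68 ± 0.31 (SE; adjusted p = 0.000724) in L1PA3 in ORF2p RIP over mock IP. The changes were 2.08 ± 0.36 (SE; adjusted p = 0.000151) and 1.26 ± 0.31 (SE; adjusted p = 0.00266) in ORF1p RIP over mock IP. The L1PA3 change was 0.88 without ORF1p RIP replicate 3, under 2-fold. Copies with no such neighbour changed by 2.76 ± 0.41 (SE; adjusted p = 0.000113) and 1.79 ± 0.32 (SE; adjusted p = 0.000506) in ORF2p RIP over mock IP. In ORF1p RIP over mock IP they changed by 1.76 ± 0.39 (SE; adjusted p = 0.0012) and 0.97 ± 0.31 (SE; adjusted p = 0.0149). The L1PA3 value passed 2-fold without ORF1p RIP replicate 1, 2 or 4, at 1.08 to 1.09. With a neighbour on the same strand, as in an insertion split by another repeat, L1PA3 copies changed by 2.42 ± 0.39 (SE; adjusted p = 0.000195) in ORF2p RIP and 1.80 ± 0.38 (SE; adjusted p = 0.00075) in ORF1p RIP over mock IP. These had the largest median length of the 3 kinds, 1399 bases.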

How the data were processed

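RNA-seq and RIP-seq libraries of N2102Ep cells were made with the Trio RNA-seq kit and probes against human ribosomal RNA, after DNase, per the labels' protocols. The submitters' processing notes name STAR (no version) and hg38; no source used here names the counting program. The authors deposited 1 table of estimated counts per repeat locus, a unit read from the values, with no genes and no scaling. Of its 60 value columns 17 matched a labelled sample, and the 43 others entered no step. Members were taken by name and by end minus start of 5900 or less, and their lists and the tests were chosen with earlier results of these data known. Estimated counts were rounded to whole numbers and summed by subfamily, with L1PA2 and L1PA3 split by length, by length bin or by gene context. Sums and single loci were filtered with filterByExpr (min.count 10) and fitted by group, all 17 libraries together, by edgeR's quasi-likelihood test (edgeR 4.0.16, limma 3.58.1, R 4.3.3), with TMM factors of the subfamily sums. SE is the fitted log2 change over the square root of F. Shares of truncated reads (percent) were compared by exact two-sided permutation tests. Scripts were tested on simulated counts. The named copies were the 8 highest by mean level, the 4 higher and 4 lower copies with the largest change in each comparison without total RNA (2 and 2 with it) among those called, at 3 CPM or more in 1 group and without overlap, and the copy of smallest p over mock IP in each length bin. Gene spans are RefSeq's (GRCh38.p14, 59792 spans, of which 27305 had a strand from the promoter table). Deviations of same-numbered libraries of different groups had correlations of -0.47 to 0.46, with no common sign, so numbers were not taken to pair them. No 2 libraries agreed within sampling noise. Counting error alone is small at sums of this size, and the number of libraries limits their precision. No sequences are shown.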

Additional observations from a re-analysis of the deposited data

Results flagged for a closer look

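In groups of 4 or 6 libraries, a library was marked where its gap to the next took up most of the range of its group (Dixon's 95% critical value), for 192 sets of values of 1 group. Chance marks about 1 in 20 groups. There were 36 marks, and 23 of them fell on ORF1p RIP replicate 3, whose part in the results is given beside them. That library had 11936 CPM in truncated L1PA2 and 15882 CPM in truncated L1PA3, and a truncated share of 40.2% of L1PA3 reads, below its group. In CPM per kb, it held 2.50 in L1PA2 copies of 1001 to 2000 bases, 4.04 at 2001 to 3000, 4.11 at 3001 to 4000, 5.16 at 4001 to 5000 and 8.13 at 5001 to 5900, and in L1PA3 copies, from the shortest bin to the longest, 0.903, 1.14, 0.819, 1.09, 1.51, 2.33, 1.93 and 2.74. All 13 lay above the other 3 libraries of the group.

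Among single copies, the same library stood highest of its group at the leading L1PA2 copy of chromosome 8 (274 CPM), at the SRGAP2C copy (314 CPM), at chr6:104452400-104457460 (122 CPM), at chrX:96054744-96057778 (93.9 CPM), at chr5:116251267-116255538 in COMMD10 (33.5 CPM), at the ZNF493 copy (4.35 CPM) and at chr2:99741130-99741871 in AFF3 (3.06 CPM). Replicate 4 of ORF1p RIP was lowest at the chromosome 7 copy (26.4 CPM) and alone above 0 at chr6:140162395-140164288 (0.114 CPM), replicate 2 held 47.8 CPM at chr2:195063392-195064189, above the 1.39 to 6.92 CPM of the others, and replicate 1 was alone above 0 at chrY:19667545-19668269 (0.107 CPM). In ORF2p RIP, replicate 3 was lowest at the RCOR3 copy (0.731 CPM) and replicate 1 alone above 0 at the ALCAM copy (0.213 CPM). In total RNA, replicate 2 stood highest at chr3:145821261-145823394 (2.15 CPM), replicate 4 at chr19:53169529-53170239 in ZNF665 (0.167 CPM) and at chr4:46062679-46063882 in GABRG1 (1.78 CPM), replicate 5 at chrY:19667545-19668269 (0.252 CPM), and replicate 6 at the RCOR3 (5.84 CPM), ALCAM (0.410 CPM) and AFF3 (0.307 CPM) copies.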

How the results depend on the processing

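None of the sums of truncated copies turned its direction where called, under library totals, DESeq2's size factors, DESeq2's own test (DESeq2 1.42.0), no filter, the replicate block, total RNA of series bl alone, a limit of 5500 bases, or without the leading copy. Library totals shifted every change by -0.30 in ORF2p RIP over mock IP, -0.091 in ORF1p RIP over mock IP, -0.21 in ORF2p RIP over ORF1p RIP, -0.42 in ORF2p RIP over total RNA, -0.21 in ORF1p RIP over total RNA and -0.11 in mock IP over total RNA. Over whole-valued copies alone the calls against mock IP were lost, as given in the report, and so were those in ORF2p RIP (0.16 and 0.034) and ORF1p RIP over total RNA (0.64 and 0.23) for L1PA2 and L1PA3, against 0.19, 0.0023, 0.66 and 0.20 over mock IP. There the bins of 1001 to 2000 bases in L1PA2 (-0.16) and 301 to 600 in L1PA3 (-0.47) turned negative in ORF2p RIP over total RNA, 2 copies could be tested singly and 1 was called (higher in ORF1p RIP over total RNA, 0 in the rest), and no share could be formed, since no full-length copy is whole-valued.

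Leaving out each library in turn, the sums of truncated L1PA2 and L1PA3 ranged over 2.63 to 2.73 and 1.78 to 1.86 in ORF2p RIP over mock IP, 1.42 to 2.08 and 0.74 to 1.29 in ORF1p RIP over mock IP, and 0.61 to 1.28 and 0.54 to 1.08 in ORF2p RIP over ORF1p RIP. Counts of copies called ranged over 2433 to 2993 higher in ORF2p RIP over mock IP, 31 to 65 lower in ORF2p RIP over mock IP, 1536 to 2115 higher in ORF1p RIP over mock IP, 257 to 332 lower in ORF1p RIP over mock IP, 1120 to 1925 higher in ORF2p RIP over ORF1p RIP, 197 to 311 lower in ORF2p RIP over ORF1p RIP, 2994 to 4016 higher in ORF2p RIP over total RNA, 35 to 56 lower in ORF2p RIP over total RNA, 2327 to 3032 higher in ORF1p RIP over total RNA, 197 to 257 lower in ORF1p RIP over total RNA, 45 to 246 higher in mock IP over total RNA and 0 to 11 lower in mock IP over total RNA.

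The counts higher and lower, in the order ORF2p RIP over mock IP, ORF1p RIP over mock IP, ORF2p RIP over ORF1p RIP, ORF2p RIP over total RNA, ORF1p RIP over total RNA and mock IP over total RNA, were 1600 and 26, 1306 and 147, 690 and 138, 1736 and 20, 1513 and 121 and 89 and 1 at a minimum count of 30, by which fewer copies were tested, and 2749 and 51, 1994 and 298, 1428 and 251, 3484 and 28, 2722 and 207 and 14 and 0 with the replicate number as a block. The replicate block left no sum of truncated copies on the other side of the threshold. Library totals raised the lower counts to 114 in ORF2p RIP over mock IP and 106 over total RNA, total RNA of series bl alone gave 83 lower in ORF2p RIP over mock IP and 352 higher and 90 lower in mock IP over total RNA, and DESeq2 called 5 lower there. Among sums by gene context, 12 calls were lost and 5 gained on library totals or without 1 library, and among those by divergence, chromosome or neighbour 14 were lost and 15 gained without 1 library. The differences of shares and of long to short ratios all missed the adjusted p threshold in the main tests. There was thus no called direction that a setting could turn, and whether their directions held was not tested. Shared reads limit every single copy, and the 3 mock IP libraries limit every comparison with them.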
